A study of Mus musculus with 2 samples.

Results

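The H19 and Kcnq1 imprinted domain is a stretch of distal mouse chromosome 7 in which most genes are expressed mainly from 1 parental allele. Its 10 genes were taken by name, in chromosome order, as H19, Ascl2, Cd81, Tssc4, Kcnq1, Kcnq1ot1, Cdkn1c, Slc22a18, Phlda2 and Nap1l4. All 10 symbols matched 1 row each of the 43346 mouse genes in the tables. On GRCm38, the assembly also called mm10, they span 973.6 kb of chromosome 7, positions 142575529 to 143549106. The study profiled total RNA of livers from healthy B6NCrl mouse embryos at embryonic day 11.5, male and female pooled. It has 1 group of 2 libraries: replicate 1, a pool of 109 embryos, and replicate 2, a pool with no embryo number in these sources. The labels give separate tissue samples but the same donor entry for both, so the spread between the libraries is that between these pools and their preparations. With 1 group there was no condition to test.

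Estimated counts, in which a model divides reads that fit several transcripts, totalled 34344230 in replicate 1 and 31477397 in replicate 2. Levels are given as TPM, a share of all transcripts that corrects for transcript length. Spiked-in control RNAs held 14.6% of TPM in replicate 1 and 11.1% in replicate 2, which lowers the TPM of every gene a little more in replicate 1. The labelled tissue was borne out by its markers, since 10 of 10 hepatoblast markers and 10 of 10 erythroid markers were at or above 1 TPM in each library. Trophoblast markers, which matter here because several genes of the domain are best known from the placenta, did so in 0 of 10 cases, with levels that summed to 0.58 TPM (replicate 1) and 0.18 TPM (replicate 2). Heart muscle markers did so in 10 of 14 cases and differed between the libraries, with a sum over the list of 355 TPM for replicate 1 against 156 TPM for replicate 2. Their range over the 14 genes was 0.25 to 119 TPM in replicate 1 and 0 to 58.9 TPM in replicate 2, with Nppb at 0 counts in replicate 2 only. In bulk tissue, a change in the number of cells of a type and a change in RNA per cell cannot be told apart.

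Imprinting in the domain is set by a pair of control regions. The first, upstream of H19, is methylated on the paternal allele, where Igf2 is expressed in place of H19. The second lies in an intron of Kcnq1 and is unmethylated on the paternal allele, where it is the start of Kcnq1ot1, a long antisense RNA that represses the protein-coding genes around it on the same chromosome. Cdkn1c, Phlda2, Slc22a18 and Kcnq1 are therefore expressed mainly from the maternal allele, while Ascl2, Cd81, Tssc4 and Nap1l4 are known for a maternal bias mainly in placenta. The values below are sums over both alleles, so imprinting itself was not measured.

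H19 is a spliced, capped RNA with no known protein product and is the host of the microRNA miR-675. The mature forms are shown with the seed, bases 2 to 8, in capitals, because the H19 transcripts described below differ in whether they hold this hairpin. Both are from RefSeq on GRCm38.p6, minus strand, and are read 5′ to 3′.
mmu-miR-675-5p, chr7:142577112-142577133: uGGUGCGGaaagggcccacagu
mmu-miR-675-3p, chr7:142577078-142577099: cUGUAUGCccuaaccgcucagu
The seeds differ, so the arms belong to separate seed groups. The 84-base hairpin row itself had an effective length of 0, so no read could be assigned to it and its count of 0 in both libraries says nothing about the microRNA.

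Promoter windows of 250 bases before to 50 bases after the annotated start were found in RefSeq for 6 of the 10 genes. There was none for H19, Kcnq1, Cdkn1c and Nap1l4. Shown are 4 that span the contrast in CG content and level, in 5′ to 3′ direction of the gene on GRCm38.p6. Capitals mark matches, on either strand, to 3 short motifs. The first is TATAAA, the core of a promoter element for transcription start. The second is CCAAT, bound by the factor NF-Y. The last is GGGCGG, bound by Sp-family factors. No matches overlap in these windows.
Cd81, plus strand, chr7:143052500-143052799: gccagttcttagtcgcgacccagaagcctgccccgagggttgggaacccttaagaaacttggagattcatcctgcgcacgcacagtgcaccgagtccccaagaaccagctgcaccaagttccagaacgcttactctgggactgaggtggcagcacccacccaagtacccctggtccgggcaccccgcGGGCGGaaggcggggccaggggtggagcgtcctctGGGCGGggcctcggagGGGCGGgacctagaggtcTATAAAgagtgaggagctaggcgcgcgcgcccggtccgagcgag
Phlda2, minus strand, chr7:143502475-143502774: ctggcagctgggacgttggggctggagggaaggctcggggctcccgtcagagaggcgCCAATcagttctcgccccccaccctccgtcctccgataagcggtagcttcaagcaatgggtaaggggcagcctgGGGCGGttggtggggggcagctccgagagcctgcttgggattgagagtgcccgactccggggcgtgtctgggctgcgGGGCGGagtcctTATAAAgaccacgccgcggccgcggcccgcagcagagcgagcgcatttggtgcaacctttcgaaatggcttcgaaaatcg
Kcnq1ot1, minus strand, chr7:143296498-143296797: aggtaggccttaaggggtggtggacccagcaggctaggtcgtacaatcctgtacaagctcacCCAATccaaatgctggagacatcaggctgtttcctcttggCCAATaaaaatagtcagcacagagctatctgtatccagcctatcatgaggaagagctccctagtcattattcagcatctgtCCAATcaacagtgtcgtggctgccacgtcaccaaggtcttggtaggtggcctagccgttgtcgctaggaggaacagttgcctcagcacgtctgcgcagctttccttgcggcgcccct
Slc22a18, plus strand, chr7:143473539-143473838: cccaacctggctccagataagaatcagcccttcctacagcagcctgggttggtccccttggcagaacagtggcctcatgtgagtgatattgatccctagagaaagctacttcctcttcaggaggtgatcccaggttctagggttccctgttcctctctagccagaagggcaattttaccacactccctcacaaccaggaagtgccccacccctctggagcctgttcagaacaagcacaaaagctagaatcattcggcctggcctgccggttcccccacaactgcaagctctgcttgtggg
CG pairs numbered 26 in the Phlda2 window, 23 each in those of Cd81, Ascl2 and Tssc4, 9 in that of Kcnq1ot1 and 2 in that of Slc22a18, against a median of 7 over all 32851 promoter windows. At least 26 pairs were held by 16.9% of all windows, at least 23 by 21.5%, and at most 2 by 23.3%. A TATAAA lay 30 bases before the start in Phlda2 and 7 bases past it in Cd81, and 13.6% of all windows hold one. CCAAT occurred 3 times in Kcnq1ot1, at 188, 148 and 67 bases before the start, 3 times in Ascl2, and 1 time each in Phlda2 and Tssc4, so that 4 of the 6 windows hold it, against 37.4% of all windows. GGGCGG occurred 3 times in Cd81, 2 times in Phlda2 and 1 time in Ascl2, and 35.7% of all windows hold it. The Slc22a18 window held none of these letters. Among these 6 windows CG count did not fully sort the genes by level, since Ascl2 and Cd81 have the same CG count and their levels, given next, lie far apart. The windows with the fewest CG pairs, of Slc22a18 and Kcnq1ot1, belong to genes with mean levels of 3.13 and 2.78 TPM. With no window for the other 4 genes, CG content and level over the whole domain were not compared.

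H19 at 390 ± 76.4 TPM and Cdkn1c at 356 ± 6.37 TPM had the highest levels of the domain, and Ascl2 at 1.31 ± 0.184 TPM and Kcnq1 at 0.710 ± 0.382 TPM the lowest (mean ± SD, n = 2 libraries, here and below). The libraries put H19 and Cdkn1c in opposite orders, and the order of Ascl2 and Kcnq1 depends on the deposited estimate used. Of the 10 genes, 9 were at 1 TPM or above in each library, the level used for detection, against 31.1% of all mouse genes and 56.7% of protein-coding genes. The median of the 10 was 26.0 TPM in replicate 1 and 27.0 TPM in replicate 2, where that of all protein-coding genes was 2.82 and 2.87 TPM, and 6 of the 10 lay above the protein-coding median in both libraries. H19, Cdkn1c and Cd81 together made up 87.0% of the domain's TPM in replicate 1 and 85.1% in replicate 2.

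**Figure D1:**
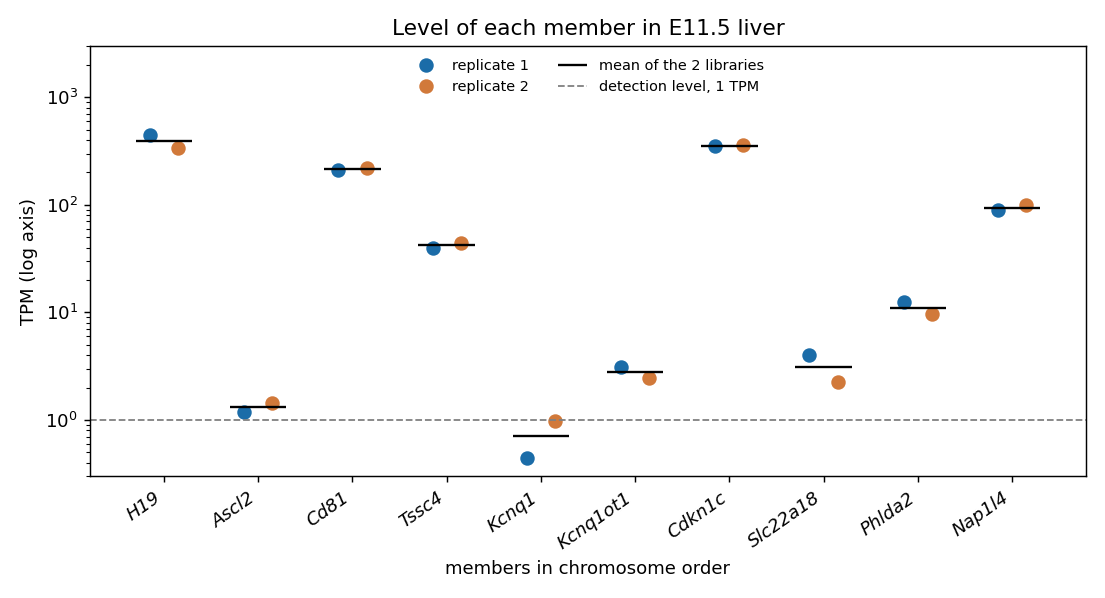
TPM on a log axis for the 10 genes in chromosome order, with a point for each library, a bar for the mean and a dashed line at the detection level of 1 TPM. H19, Cd81, Cdkn1c and Nap1l4 stand above 80 TPM in both libraries, and Kcnq1 lies under 1 TPM in both.

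Among the neighbouring genes Cdkn1c, Slc22a18 and Phlda2, Cdkn1c stood far above the others. Cdkn1c (ENSMUSG00000037664, minus strand, chr7:143458339-143461050) encodes p57, an inhibitor of cyclin-dependent kinases, and had 352 TPM in replicate 1 and 361 TPM in replicate 2, more than 98.46% and 98.44% of protein-coding genes. The libraries differed little for it (SD 6.37 TPM). Phlda2 (minus strand, chr7:143501545-143503150), whose small pleckstrin-homology protein limits placental growth in the mouse, had 12.5 TPM in replicate 1 and 9.58 TPM in replicate 2. Slc22a18 (plus strand, chr7:143473736-143499334), which encodes a membrane transporter, had 3.99 and 2.27 TPM. By level, these 3 adjacent genes ran Cdkn1c over Phlda2 and Phlda2 over Slc22a18 in both libraries. This is not their chromosome order, since Slc22a18, the lowest, lies between the others.

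Of the genes with a placental bias, 3 were readily detected in liver and Ascl2 was near the detection level. Cd81 (plus strand, chr7:143052739-143067934), a tetraspanin of the cell surface, had 210 TPM in replicate 1 and 220 TPM in replicate 2. Nap1l4 (minus strand, chr7:143513579-143549106), a histone chaperone of the nucleosome assembly protein family, had 89.1 and 99 TPM. Tssc4 (plus strand, chr7:143069249-143071093), whose human protein acts in the assembly of a splicing particle, had 39.4 and 44.4 TPM. Ascl2 (minus strand, chr7:142966829-142969264), a basic helix-loop-helix factor needed for the mouse placenta, had 1.18 and 1.44 TPM, from 46 and 49 counts. All 10 trophoblast markers lay under 1 TPM in both libraries, and Tpbpa, Prl3d1, Gcm1 and Elf5 had 0 counts.

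Kcnq1 (plus strand, chr7:143106362-143427042), the pore subunit of a potassium channel of heart and inner ear, was the lowest of the 10 by TPM, with 0.44 TPM in replicate 1 and 0.98 TPM in replicate 2. These values came from 17.1 and 34.6 estimated counts. Of its TPM, 47.7% and 49.5% rested on 1 and 2 counts of a transcript of 282 bases, and without it the gene had 0.23 and 0.49 TPM. The deposited credibility interval for Kcnq1, which centres on a posterior mean and not on the TPM, was 0.666 to 3.24 TPM in replicate 1 and 1.11 to 4.23 TPM in replicate 2, so it lies above the deposited TPM in both. By the posterior mean, 1.84 and 2.58 TPM, Kcnq1 counted as detected, and only for this gene did detection depend on that choice. By that estimate Kcnq1 lay above Ascl2, which had 1.20 TPM in replicate 1 and 1.46 TPM in replicate 2, so its place as the lowest gene holds for TPM and not for the posterior mean.

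The long non-coding RNAs lay far apart in level per length. H19 (ENSMUSG00000000031, minus strand, chr7:142575529-142578143) had 444 TPM in replicate 1 and 336 TPM in replicate 2. Its SD of 76.4 TPM was the widest of the 10 in TPM, at the highest mean level. As a ratio of the libraries, Slc22a18 and Kcnq1 differed more (log2 ratios of 0.85 and -1.10, against 0.39 for H19). Kcnq1ot1 (ENSMUSG00000101609, minus strand, chr7:143203458-143296549) had 3.09 and 2.47 TPM. In reads, however, Kcnq1ot1 was a large part of the domain, at 6717 estimated counts in replicate 1 and 4699.9 in replicate 2, which were 12.5% and 10.6% of the domain's counts but 0.267% and 0.229% of its TPM. The length behind the deposited value is 84395 bases. Kcnq1ot1 had 31.5 and 33.1 times the counts of Phlda2, while its TPM was below that of Phlda2 in both libraries. It ranked the fourth by counts and the eighth by TPM in replicate 1, and the fifth by counts and the seventh by TPM in replicate 2. The Kcnq1ot1 model in GENCODE M21 covers 93092 bases, 8697 more than the model the authors quantified, so its extent depends on the annotation release.

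**Figure D2:**
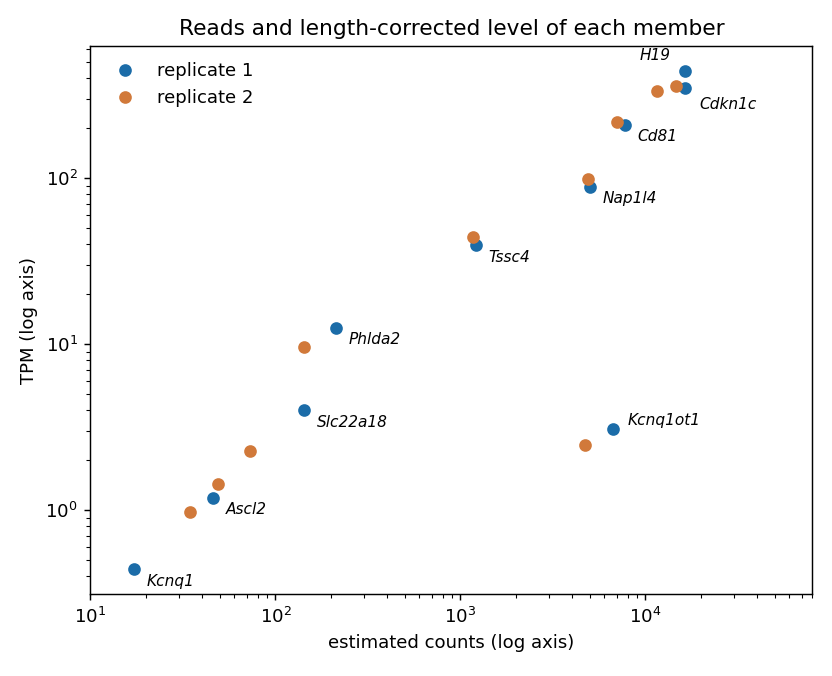
Estimated counts against TPM for the 10 genes, both on log axes, with a point for each library. Kcnq1ot1 falls below the line of the others, at 6717 and 4699.9 counts and 3.09 and 2.47 TPM.

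Kcnq1ot1 lies wholly within the Kcnq1 locus on the opposite strand and covers 29.0% of it. Exon 11 of the 16 exons of the longest quantified Kcnq1 transcript, the 121 bases at chr7:143261256-143261376, falls inside Kcnq1ot1, and the rest of the overlap is Kcnq1 intron. The strand setting of the counting is not stated in these sources. Tssc4 and Trpm5, which overlap on opposite strands, had fractional counts, at 1212.39 and 49.61 in replicate 1. In each library the counts of this pair add up to a whole number. So do those of Kcnq1, Kcnq1ot1 and the short features inside it. Reads thus appear to have been divided between the strands, and total RNA holds unspliced transcripts. Where the loci overlap, a read of a Kcnq1 intron and a read of Kcnq1ot1 therefore cannot be told apart. The tables also hold short features in Kcnq1 introns outside Kcnq1ot1. Of these, Gm37364, on the Kcnq1 strand, had 0 counts in replicate 1 and 2 in replicate 2 over 3821 effective bases. Gm38095, on the same strand, had 1 and 0 over 1303, and Gm38065, on the opposite strand, had 0 and 0 over 3393. Inside Kcnq1ot1 but on the Kcnq1 strand, Gm27395 had 0 and 0 over 361, and Gm27389 had 0.26 and 4.70 over 96. Gm27539 had 0 and 0 over 125, and Gm27803 had 0 and 0.75 over 20. Counts inside Kcnq1ot1 are the model's shares of reads that also fit Kcnq1ot1, so they do not measure the Kcnq1 strand. Kcnq1ot1 had 79.7 counts per kb in replicate 1 and 55.8 in replicate 2. The part of Kcnq1 intron reads in the Kcnq1ot1 count was not tested. Other exonic overlaps with genes on the opposite strand covered 11.9% of the exon bases of Tssc4 (with Trpm5, a cation channel), 3.61% of those of Cd81 (with R74862, a non-coding transcript), and 2.89% and 2.85% of those of H19 (with Gm27483 and Gm27786, annotated as miscellaneous RNAs, which have an effective length of 0). For Cdkn1c, 30.7% of exon bases overlap Gm44732, an antisense gene of GENCODE M21 that has no row in the tables.

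Sorted by level, the 10 genes formed a sequence with 9 neighbouring pairs. The order of a pair was accepted where it was the same in each library, with credibility intervals apart in each and a mean log2 ratio larger than the gap between the 2 ratios. This held for 6 of the 9 pairs. Cdkn1c exceeded Cd81 by a log2 ratio of 0.73 ± 0.02, Cd81 exceeded Nap1l4 by 1.19 ± 0.06 and Nap1l4 exceeded Tssc4 by 1.17 ± 0.01. Tssc4 exceeded Phlda2 by 1.92 ± 0.39, Phlda2 exceeded Slc22a18 by 1.83 ± 0.28 and Kcnq1ot1 exceeded Ascl2 by 1.03 ± 0.41. The remaining 3 pairs could not be put in order. H19 was above Cdkn1c in replicate 1 (log2 ratio 0.34) and below it in replicate 2 (-0.10). Slc22a18 was above Kcnq1ot1 in replicate 1 (0.36) and below it in replicate 2 (-0.12). Ascl2 was above Kcnq1 in both (1.25 and 0.51), but their intervals overlapped, and by the posterior mean the mean log2 ratio was -0.68. With 2 libraries the smallest p of an exact sign-flip test is 0.5, and no p is printed.

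H19 reads were divided among 3 of its 5 quantified transcripts, and the division differed between the libraries. The short transcript, of 817 bases (ENSMUST00000140716), carried 42.2% of H19 TPM in replicate 1 and 34.96% in replicate 2. The middle one, quantified at 1853 bases (ENSMUST00000152754), carried 32.2% and 33.3%. The long one, of 2286 bases (ENSMUST00000136359), carried 25.6% and 31.7%. The short transcript was thus the main one by TPM in both libraries, but by counts, which do not correct for length, it was the least of the 3, with 21.2% and 16.4%. The other two had 0 counts in both libraries.

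The difference in H19 between the libraries was largest for the short transcript. It was 1.69-fold higher in replicate 1 than in replicate 2 (log2 ratio 0.76, 95% interval 0.68 to 0.84), against 1.35-fold for the middle one (0.44, 0.38 to 0.49) and 1.13-fold for the long one (0.18, 0.13 to 0.23). The intervals do not overlap, but they cover counting error only and treat the assignment of reads to transcripts as known, and the 3 transcripts share exons. The miR-675 hairpin lies in exon 1 of the long transcript and spans its bases 997 to 1080. In GENCODE M21 the hairpin is held by 3 of 7 H19 transcripts, among them the long and the middle one, and is absent from the short one, which starts downstream of it. The long and the short transcript have the same length in M21 as in the tables, while the middle one has 1521 bases there, so its quantified model is another one.

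**Figure D3:**
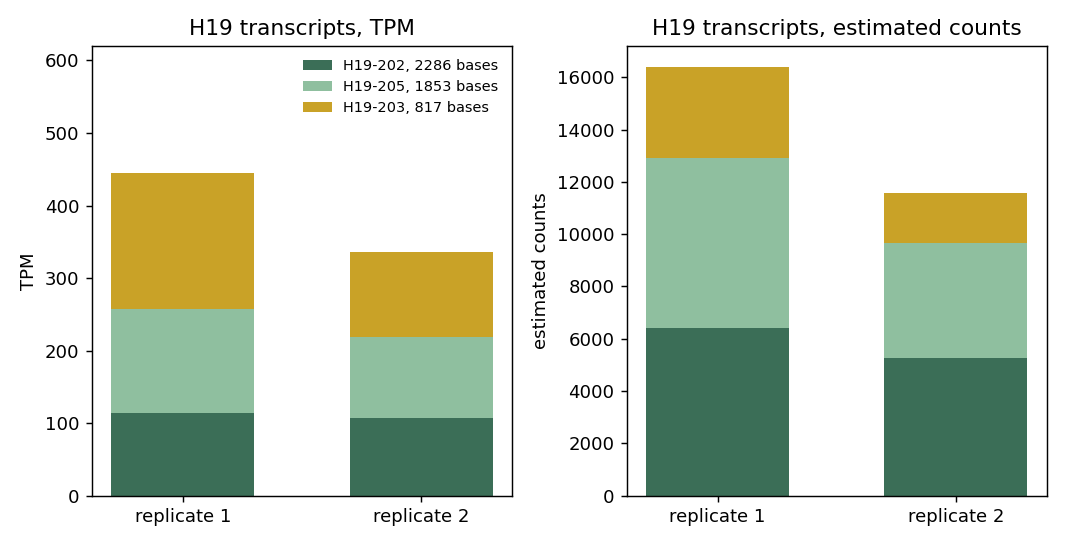
H19 by transcript, in TPM on the left and in estimated counts on the right, with a stacked bar for each library and a colour for each of the 3 transcripts with reads. The 817-base transcript is the largest part by TPM, with 187 TPM in replicate 1 and 118 TPM in replicate 2, but the smallest by counts.

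The main transcript, by its share of the gene's TPM, was the same in both libraries for 8 of the 10 genes. Cdkn1c was split in nearly the same way in both, with 82.8% in replicate 1 and 82.2% in replicate 2 from a transcript of 1893 bases and the rest from one of 1931 bases. In GENCODE M21, where their lengths are 1901 and 1888 bases, they differ at the start of the second exon and at their ends. A single transcript of 1533 bases carried 98.9% and 98.8% of Cd81. Tssc4 was spread over 5 of 6 transcripts, led by one of 1364 bases with 61.5% and 56.3%, while each of the others held at most 14.1%. Slc22a18, with 143 and 73 counts, came to 80.7% and 100% from a transcript of 1525 bases. By the posterior mean that share was 54.9% in replicate 1 and 54.5% in replicate 2. Phlda2, Nap1l4 and Kcnq1ot1 had 1 quantified transcript each. The exceptions were Ascl2 and Kcnq1, which have few counts. The Ascl2 transcript of 1605 bases carried 46.0% of its TPM in replicate 1 and all of it in replicate 2, and the other one, of 1612 bases, is nearly the same in length.

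Replicate 1 was compared with replicate 2 on counts scaled by TMM, an edgeR normalization, and a gene was called when the libraries were at least 1.5-fold apart at a mean of 10 or more counts. Slc22a18 was called higher in replicate 1, at 138 scaled counts in replicate 1 and 75.9 in replicate 2 (1.81-fold, log2 ratio 0.85, 95% exact binomial interval 0.44 to 1.29). Such a call was made for 7.05% of the 16607 genes with enough counts. Kcnq1 was called higher in replicate 2, at 16.5 scaled counts in replicate 1 and 36.0 in replicate 2 (log2 ratio -1.10, interval -2.08 to -0.28), a call made for 3.96% of genes. The Kcnq1 interval treats the division of reads between Kcnq1 and the overlapping Kcnq1ot1 as known. With 1 of 10 called on each side, the counts are too small to set the domain apart from this background. At 2-fold or more, 0 of 10 were called higher in replicate 1 (2.94% of genes) and Kcnq1 alone higher in replicate 2 (1.46%). Among those averaging 100 or more counts, to which Ascl2 and Kcnq1 do not belong, Slc22a18 was the 1 called higher in replicate 1 (1.10% of genes) and 0 were called higher in replicate 2 (0.382%).

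The other 8 genes were under 1.5-fold apart. Phlda2 (log2 ratio 0.47, interval 0.16 to 0.79), Kcnq1ot1 (0.40, 0.35 to 0.46) and H19 (0.39, 0.35 to 0.42) were higher in replicate 1, and their intervals lie above 0. Over the 12053 genes averaging at least 100 counts, the log2 ratio had an SD of 0.23, and 2.01%, 3.18% and 3.48% of them were at least as far to that side as Phlda2, Kcnq1ot1 and H19. Cdkn1c (0.05) and Cd81 (0.02), whose signs turn negative when deposited TPM are compared, Tssc4 (-0.05) and Nap1l4 (-0.07) were closely matched, and Ascl2 (-0.20, -0.82 to 0.41) was too sparse to tell. The intervals of Cdkn1c (0.02 to 0.08) and Nap1l4 (-0.12 to -0.01) also leave out 0, so that trait alone does not set genes apart. The median over the 10 genes was 0.03, against -0.0023 over the 16607 genes. Markers of heart muscle moved in the direction of H19, Kcnq1ot1, Slc22a18 and Phlda2, with 13 of 13 genes that averaged at least 10 counts called higher in replicate 1 and a median log2 ratio of 1.24. Kcnq1, a channel gene of heart, moved the other way (-1.10), from few counts. None of 10 mesenchymal (median 0.08), 10 hepatoblast (-0.03) or 10 erythroid markers (-0.13) was called. Of 6 mesothelial (median 0.15) and 10 endothelial markers (0.02), 1 each was called higher in replicate 1, against 7.05% of all genes with enough counts. The part of any of these cell types in the differences was not tested.

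**Figure D4:**
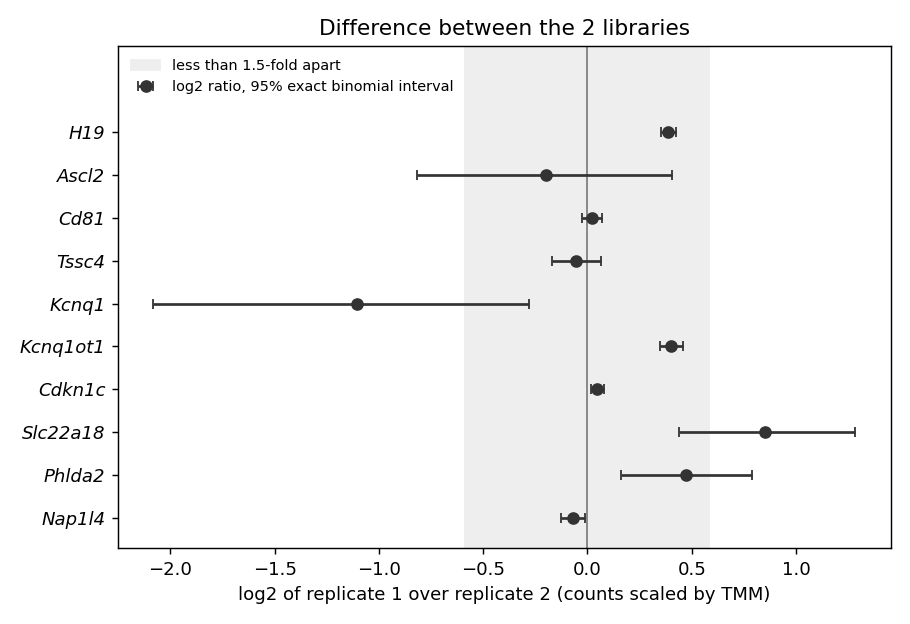
The log2 ratio of replicate 1 over replicate 2 for each gene, from counts scaled by TMM, with 95% exact binomial intervals and a grey band for less than 1.5-fold. Slc22a18 (0.85) and Kcnq1 (-1.10) lie outside the band, and H19, Kcnq1ot1 and Phlda2 lie in its right part with intervals above 0.

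Within 250 kb on each side of the 10 genes, the tables hold 49 other genes, of which 14 were detected, among them 12 of 20 protein-coding ones. The 10 genes made up 57.2% of the TPM of this window in replicate 1 and 55.1% in replicate 2. Between H19 and Nap1l4, 4 of 27 other genes were detected. These were Igf2, a fetal growth factor (363 TPM in replicate 1 and 311 TPM in replicate 2), Tspan32, a tetraspanin of blood cells (87.9 and 94.99 TPM), the non-coding R74862 (2.14 and 2.72 TPM) and the small nucleolar RNA Gm23297 (1.38 and 1.59 TPM, from 1 count in each library). H19 and Igf2 were at similar levels. Both were higher in replicate 1 by less than 1.5-fold (log2 ratio 0.39 for H19 and 0.26 for Igf2). Over the 12053 genes averaging at least 100 counts, the SD of this ratio was 0.23. The genes are known to share enhancers on opposite alleles, and any part of that in these values was not tested. Ifitm10, of a family of interferon-induced membrane proteins, was the outermost detected gene on the H19 side (1.82 and 1.47 TPM).

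**Figure D5:**
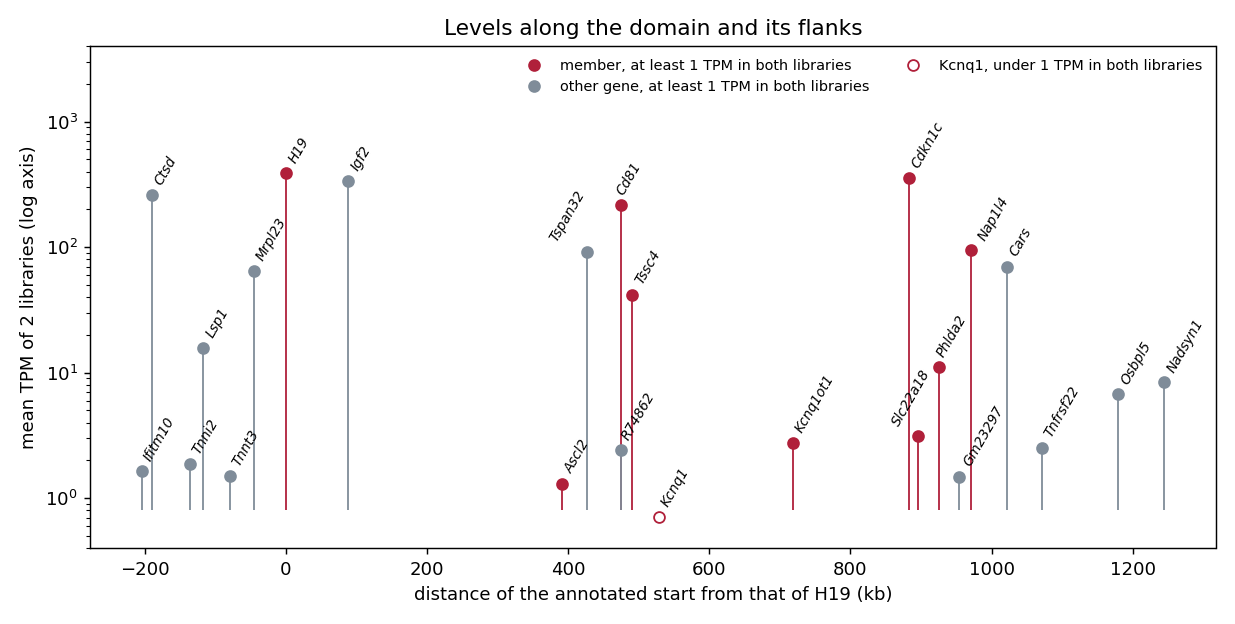
Mean TPM of the 2 libraries on a log axis against the distance in kb of each gene's annotated start from that of H19. Red points are the genes of the domain, with Kcnq1 as an open circle, and grey points are the 14 other detected genes, led by Igf2 and Ctsd at 337 and 260 TPM.

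Of 22 flanking and interspersed genes listed by name, 12 were detected. Of the 16 with enough counts, Tnni2 and Tnfrsf23 were called higher in replicate 1, a call made for 7.05% of all genes with enough counts, and 0 higher in replicate 2, a call made for 3.96%. Tnfrsf23 had only 16.4 estimated counts in replicate 1 and 9.05 in replicate 2. With those of Tnfrsf22 (log2 ratio -0.54) they add up to whole numbers, so these genes appear to share reads. Before H19 in chromosome order the detected genes included Ctsd, a lysosomal protease (243 TPM in replicate 1, 276 TPM in replicate 2), Mrpl23, a mitochondrial ribosomal protein (62.8 and 66.8 TPM), Lsp1, a leukocyte cytoskeletal protein (14.8 and 16.7 TPM), and the fast skeletal troponins Tnni2 (2.29 and 1.47 TPM) and Tnnt3 (1.81 and 1.18 TPM). Past Nap1l4 they were Cars, a cysteine tRNA ligase (64.3 and 75.2 TPM), Dhcr7, the last enzyme of cholesterol synthesis (50.9 and 60.2 TPM), Nadsyn1, an NAD synthetase (6.53 and 10.2 TPM), Osbpl5, an oxysterol-binding protein relative (6.84 and 6.59 TPM), and Tnfrsf22, a decoy death receptor (1.97 and 3.09 TPM). Under 1 TPM in both libraries were Igf2os, Trpm5, Tnfrsf26, Tnfrsf23, Th, Syt8 and Nctc1. Ins2, which encodes insulin and lies next to Igf2, had 0 counts in each library, where 3 counts would be 0.334 TPM (replicate 1) or 0.383 TPM (replicate 2), while Mrgprg and Mir675 also had 0 counts.

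The factors that read or maintain the control regions were present at moderate to high levels. Of 15 listed genes, 12 were detected and none was called different between the libraries. Ctcf, the insulator protein that binds the unmethylated H19 control region, had 58.4 TPM in replicate 1 and 65.3 TPM in replicate 2. Zfp57 (22.3 and 22.9 TPM) and Zfp445 (19.5 and 23.0 TPM), zinc finger proteins that protect methylation at imprinted sites, and their partner Trim28 (267 and 276 TPM) were detected. Maintenance methylation was represented by Dnmt1 (51.8 and 57.6 TPM) and Uhrf1 (132 and 147 TPM). Ehmt2, which methylates histone H3 and acts with Kcnq1ot1 in mouse placenta, had 39.1 and 35.3 TPM. The Polycomb subunits Ezh2 (46.1 and 47.6 TPM), Eed (39.9 and 38.7 TPM) and Suz12 (23.0 and 23.5 TPM), the methyltransferase Dnmt3a (54.8 and 57.8 TPM) and the RNA-binding Hnrnpk (1247 and 1434 TPM) completed the detected set. The germline genes Ctcfl, Dnmt3l and Dppa3 had 0 to 4 counts per library.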

How the data were processed

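Total RNA of 2 liver libraries was measured; per the labels' protocols, 10 ng of RNA was used for each with a protocol named for Smart-seq. Per the notes deposited with the tables, reads were assigned on mm10 with GENCODE M4 from transcriptome alignments. The aligner, quantifier and strand setting were not stated in these sources. Values deposited by the authors are estimated counts, TPM relative to all features including spike-ins, a posterior mean TPM with a credibility interval of unstated level, and the percent of each gene's TPM carried by each transcript. Symbols and coordinates came from GENCODE M21 on GRCm38, matched on the identifier without version. Of the 43346 genes, 884 had no match.

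Levels were used as deposited. Counts were rounded to whole numbers for scaling over mouse genes with edgeR 4.0.16 and, as an alternative, DESeq2 1.42.0, in R 4.3.3. Spike-ins and 26248 numbered short features, with 43.0 and 30.0 counts, were left out of scaling. Pseudocounts were 0.5 counts and 0.1 TPM. Intervals of ratios are 95% exact binomial intervals and reflect counting error alone, as reads lacking molecular identifiers do not stand for single molecules. The limit for a count of 0 is 3 counts. The other steps used scipy 1.17.1 and pandas 2.3.3 in Python 3.11.15. The genes and lists were chosen with earlier results of these data known. All 10 genes of the domain, the listed genes and the detected genes of the window were named. Genes of like pattern were not sought, since with 2 libraries any pair correlates at 1 or -1.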

Additional observations from a re-analysis of the deposited data

How the results depend on the processing

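No paired analysis was possible because the 2 libraries belong to 1 group. The median level of the 10 genes was 26.5 TPM, and 30.4 TPM when TPM was rescaled to mouse genes alone, which takes out the spike-ins. Without replicate 1 or 2 it was 26.0 to 27.0 TPM. Detection held 9 genes, and 8 to 10 under the alternatives tried. The 6 ordered pairs numbered 6 with the posterior mean, a pseudocount of 1 TPM or without replicate 1, and 8 without replicate 2. These numbers, and that by counts below, leave out pairs in the reverse order. One such pair without replicate 1 is H19 over Cdkn1c, at a log2 ratio of -0.10. The posterior mean turned Ascl2 over Kcnq1, not ordered by TPM, to a log2 ratio of -0.68, against 0.88. With counts not corrected for length, 6 pairs met the rule in the order by TPM. Slc22a18 over Kcnq1ot1 was reversed in both libraries (-5.55 and -6.01), with a mean log2 ratio of -5.78, against 0.12 by TPM. H19 over Cdkn1c had a mean log2 ratio of -0.17 by counts. At 2-fold or more, 0 genes were called higher in replicate 1, and among those averaging at least 100 counts 0 were called higher in replicate 2, where Kcnq1 has too few counts to enter. The sign of the library ratio changed with the scaling for Cd81 (-0.06 to 0.04) and Cdkn1c (-0.04 to 0.07). Deposited TPM shifted the median ratio of genes averaging at least 100 counts to -0.09. By TMM, 64.0% of called genes were higher in replicate 1, and 54.5% by deposited TPM. By counts, 8 genes had the same main transcript, but not the same 8: H19 no longer did and Kcnq1 did. By the posterior mean there were 9, with Kcnq1 as the exception. Of the other genes of the window, 14 were detected, against 9 within 100 kb, 9 at a TPM of 2 or more and 17 at 0.5 or more. Depth limits Kcnq1, Ascl2 and Slc22a18 most.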
